A study of Vulpes vulpes with 8 samples.

Results

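The 8 arrays of the study fell on either side of a gap in the signal of the 5' control probe set of beta-actin. A signal of 5000 was taken as the dividing value, and it left 4 of the 8 arrays above it, from foxes 86, 97, 107 and 757, and 4 below it, from foxes 19, 55, 381 and 402. These are called the high side and the low side here. The 4 high arrays read 7901 (fox 86), 7831 (fox 97), 8773 (fox 107) and 8868 (fox 757), and the 4 low arrays read 1551 (fox 19), 1354 (fox 55), 1542 (fox 381) and 2336 (fox 402). The array just above the dividing value was that of fox 97 and the array just below it was that of fox 402. Because these measured values chose the sides, every difference between the sides is given below as a description of 4 arrays against 4, with no p-value.

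The study profiled gingiva of red foxes, 5 affected by hereditary hyperplastic gingivitis (HHG), an inherited overgrowth of the gum, and 3 unaffected, with 1 array per fox. Fox RNA was read on a dog array, Affymetrix Canine 2. Per the labels' protocols, tissue came either from foxes euthanised for pelting or from anaesthetised live foxes after whelping, was kept in RNAlater, and yielded RNA through a fibrous tissue kit and a DNase step. The labels do not say which foxes were sampled at which time, and they give no age, strain or genotype. The high side held 2 affected foxes (107, male, and 757, female) and 2 unaffected foxes (86 and 97, males). The low side held 3 affected foxes (19 and 55, males, and 381, female) and 1 unaffected fox (402, female). A two-sided Fisher's exact test of side against disease status, and of side against sex, gave p = 1 for each, but no division of these 8 foxes into 4 and 4 can give a p below 0.143, so the test says nothing about balance.

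Beta-actin is one of the most abundant transcripts of most cells, and its protein forms the filaments of the cytoskeleton. Arrays of this design carry control probe sets for the 5' end, the middle and the 3' end of beta-actin and of GAPDH, a glycolytic enzyme. The labelling kit starts copying at the poly(A) tail, so a transcript that is broken or copied incompletely gives less signal towards its 5' end. The ratio of the 5' to the 3' control is read for that reason as a measure of the length of the labelled RNA.

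The other actin controls separated the same arrays. The middle actin probe set read 9191, 9694, 10160 and 9088 on the high arrays (foxes 86, 97, 107 and 757) and 2646, 3362, 2736 and 4102 on the low arrays (foxes 19, 55, 381 and 402, the order used throughout). The 3' probe set of that series read 12995, 12688, 14956 and 13257 against 7585, 9722, 7841 and 8314. All high arrays lay above all low arrays at each of these positions. The difference shrank from 5' to 3', with log2 differences of 2.32, 1.59 and 0.69. The 5' control over the 3' control, as a log2 ratio for actin, was -0.69 ± 0.08 on the high side and -2.33 ± 0.41 on the low side (SD, n = 4 each), without overlap. The ratio holds the probe set that chose the sides, so it describes the split and does not support it.

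A second series of actin controls is named differently on the array, and its sequences were not used here. Its 5' probe set read 8593, 8950, 9681 and 9395 against 4823, 4622, 4127 and 3993, and its middle probe set ran from 1871 to 1997 against 1139 to 1636. Its 3' probe set overlapped between the sides, at 6584 to 8541 against 6266 to 8254. In this series the 5' end separated the arrays and the 3' end did not.

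GAPDH did not divide the arrays in this way. Its 5' probe set read 1274, 1519, 1845 and 1912 on the high side and 2291, 1630, 1796 and 1463 on the low side. The log2 ratio of 5' to 3' GAPDH was -1.35 ± 0.46 against -1.07 ± 0.54 (SD, n = 4 each), and 0.93 ± 0.13 against 1.04 ± 0.23 in the second series, with overlap in both. The middle and 3' controls of the elongation factor EF1a overlapped as well. A lower ratio of 5' to 3' signal on the low side was therefore measured for beta-actin and not for GAPDH.

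**Figure D1:**
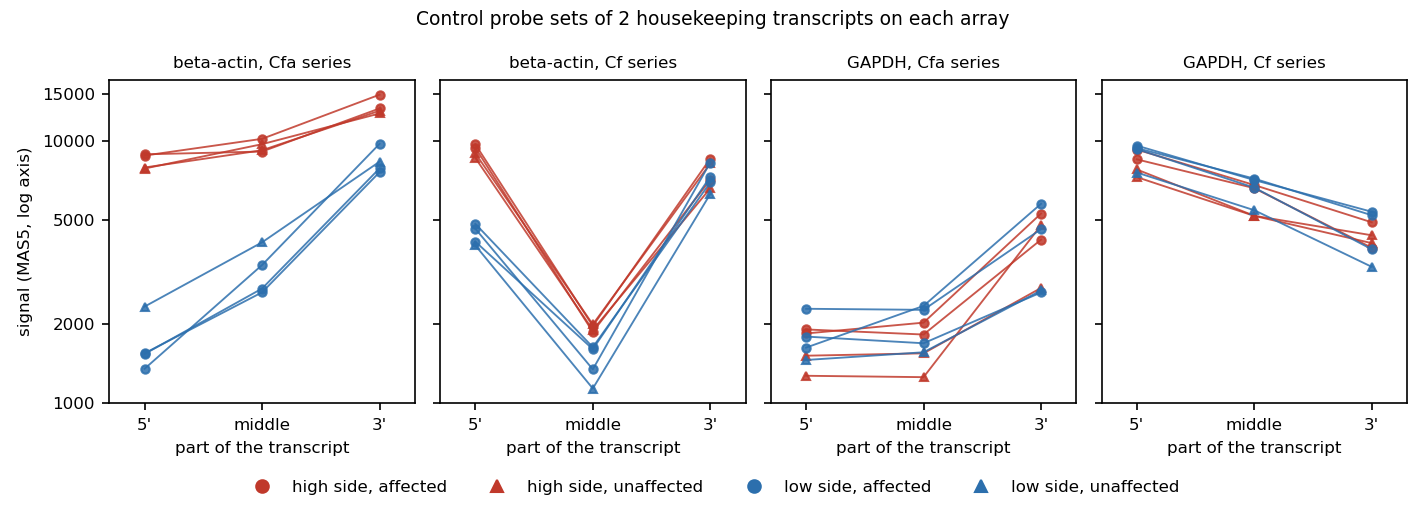
Signal (log axis) of the 5', middle and 3' control probe sets of beta-actin and GAPDH in both control series; each line is 1 array, red for the high side and blue for the low side, with circles for affected and triangles for unaffected foxes. The red and blue lines are apart at the 5' end of actin in both series, and are mixed at every position of GAPDH.

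Correlations between whole arrays differed little within and between the sides. The mean Pearson correlation across probe sets was 0.952 for the 12 pairs of arrays within a side and 0.940 for the 16 pairs between sides, as a description across probe sets that are not independent. Of the variance over all tested probe sets, 25.3% lay between the side means, and the share for other divisions of the arrays is not given here. The sides overlapped on the first principal component (37.4% of the variance) and did not on the second (20.4%), where fox 55 lay far from the other arrays at -0.82 while the others ran from -0.28 to 0.33. Fox 55 also had the lowest share of probe sets above background, 65.9%, where the other 7 arrays ran from 69.6% to 74.96%. Background was set on each array by itself, and it was highest on fox 55, at 14.7 against 7.28 to 11.3. The median signal of fox 55, 31.1, was not low. Median signal ran from 28.7 to 33.8. Counts are therefore also given without fox 55.

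A probe set was said to follow the split where the 4 arrays of each side did not overlap and the means of log2(signal + 16) differed by at least 1, a 2-fold difference. Of 25754 probe sets tested, 1356 lay higher on all high arrays than on all low arrays (5.27%) and 1166 lay lower (4.53%). With the 2-fold criterion 205 were higher (0.796%) and 59 were lower (0.229%). The median difference over all probe sets was 0.019. Without fox 55 the counts that followed the split were 277 and 166, and without fox 97 they were 541 and 166. Just inside the 2-fold line lay SLC16A1 at 1.001, SLC44A1 at 1.001 and FAM214B at 1.004. Just outside it lay BOLA1 at 0.998, SNRNP40 and PAPOLG at 0.995 each.

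**Figure D2:**
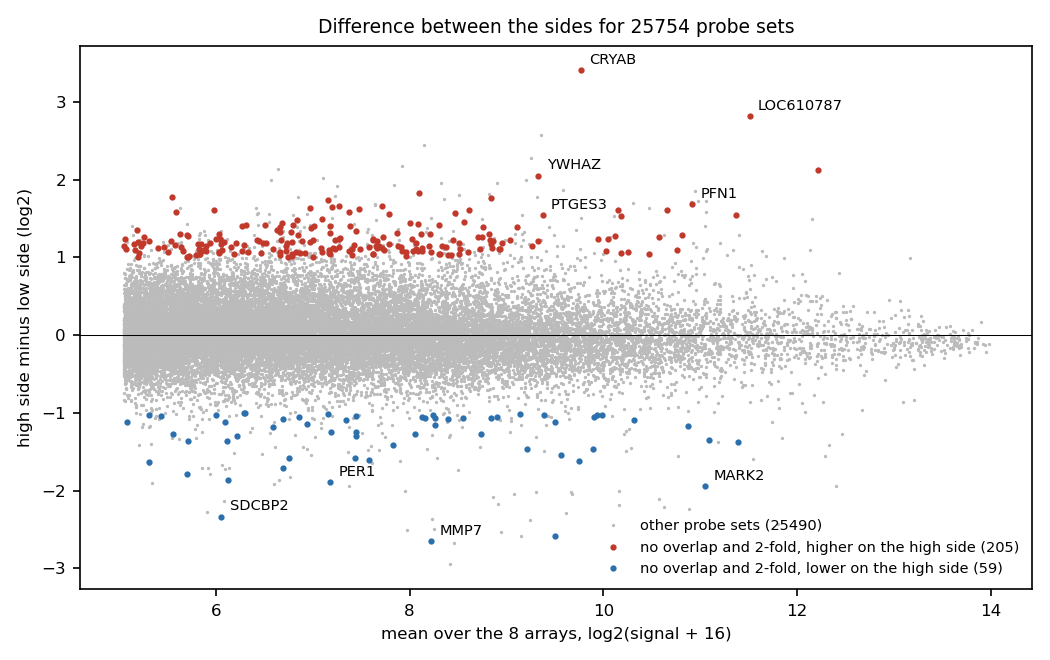
Difference between the side means (log2, high minus low) against the mean over the 8 arrays for 25754 probe sets; red points are the 205 that follow the split upwards and blue points the 59 that follow it downwards. Red points outnumber blue points, and CRYAB (3.41) and MMP7 (-2.65) are the farthest from 0 among them.

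The probe sets with the widest space between the sides carried the symbol LOC610787, a locus number only in the annotation used here, and were singled out on seeing their values. One probe set read 7674, 7034, 8182 and 8053 on the high arrays and 1055, 927, 949 and 1489 on the low arrays, a log2 difference of 2.81 ± 0.16 (SE). A second read 9584, 9028, 10946 and 10276 against 1792, 2348, 2176 and 2867, a difference of 2.13 ± 0.15. A brighter one differed by 0.996 ± 0.10 and lay just short of the 2-fold line. The last, too dim to be tested, read 28.2 to 55.2 on the high side and 2.20 to 4.65 on the low side. On all 4 probe sets the sides were apart. The 3 tested ones lay near the 5', middle and 3' actin controls, with high and low means of 7736 and 1105, 9959 and 2296, and 13041 and 6560, where the controls had 8343 and 1696, 9533 and 3211, and 13474 and 8366. Which transcript they read was not tested, and they are not taken as a finding apart from the actin controls. The 2 that followed the split are nevertheless included in the 205 higher probe sets. LOC610787 is also included in the counts of agreement between probe sets of a gene below.

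The other actin genes did not follow in the same manner. ACTG1, the second cytoplasmic actin, read 8898, 11261, 11272 and 9664 against 9773, 10750.2, 11075 and 9288, with means of 10274 ± 1188 and 10222 ± 833 (SD, n = 4 each). These values overlapped throughout, and the log2 difference was 0.00 ± 0.10 (SE). ACTA2, the actin of smooth muscle, overlapped at a difference of 0.46 ± 0.39. ACTA1, the actin of skeletal muscle, had 1 tested probe set, at 45.6 to 76.0 against 2.12 to 38.9, which followed the split at 1.09 ± 0.37. Of its low arrays 3 were above background. Its other probe sets, too dim to be tested, differed by -0.07 and 0.30. Of 6 skeletal muscle genes measured, ACTA1 among them, 4 had lower and 2 higher means on the high side. The probe set of ACTB outside the controls lay at 3.07 to 22.2 on the high side and 2.11 to 18.2 on the low side and was too dim to be tested.

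PFN1, or profilin, binds actin monomers and feeds them to growing filaments. It read 3502, 3663, 3401 and 3249 on the high arrays and 1098, 1193, 891 and 1081 on the low arrays. All high arrays were close to each other and far above all low arrays, with means of 3453 ± 174 and 1066 ± 127 (SD, n = 4 each) and a log2 difference of 1.69 ± 0.09 (SE). PFN1 is represented by that probe set alone among those tested.

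Several other genes with wide space between the sides act in signalling and protein handling. PTGES3, a co-chaperone of HSP90, read 1318, 1035, 1081 and 1054 against 457, 283, 327 and 458, a difference of 1.54 ± 0.19. Every high array was above every low array, with fox 86 the highest. PPP1CA, a catalytic subunit of a serine/threonine phosphatase, read 1015, 897, 708 and 931 against 336, 304, 335 and 322, a difference of 1.40 ± 0.11. The low arrays of PPP1CA were almost equal to each other, while its second probe set overlapped at 0.22 ± 0.25.

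The remaining genes of this group covered other functions. RBPJ, the DNA-binding partner of Notch, read 170, 169, 181 and 180 against 45.6, 62.5, 71.1 and 35.0 in one probe set, a difference of 1.49 ± 0.18. Its brightest probe set differed by 0.84 and did not reach 2-fold, and another overlapped at 0.78. TFCP2L1, an epithelial transcription factor, differed by 1.61 ± 0.20, with 79.5 to 114 against 11.8 to 30.2. CNP, a phosphodiesterase of cyclic nucleotides, differed by 1.78 ± 0.16 and was near background on the low side at 5.85 to 16.1. For these probe sets of the 3 genes the sides did not overlap. TMED7 (1.57, cargo transport in the early secretory pathway), IFNGR1 (1.58, the ligand-binding chain of the interferon gamma receptor), ALDH6A1 (1.39, valine breakdown in mitochondria), UBQLN1 (1.65, delivery of ubiquitinated proteins), SNAP23 (1.40, membrane fusion), H1-10 (1.44, a linker histone) and RALGPS2 (1.21, an exchange factor for Ral) were the others described here. TMED7 had 3 other probe sets at 1.32, 0.79 and 0.56, and RALGPS2 had 2 at 1.08 and 0.42.

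CRYAB had the largest mean difference and a narrow space between the sides. This small heat shock protein read 2231, 2395, 3596 and 3318 on the high arrays and 52.5, 1808, 89.6 and 372 on the low arrays. The low arrays differed among themselves by more than the sides did at their nearest point, since fox 55 was close to the high arrays, and the log2 difference was 3.41 ± 1.08 (SE). HSPB2, another small heat shock protein, had fox 55 as the highest low array in both probe sets, at 343 and 227, and differed by 1.43 and 1.67. Of 12 heat shock genes measured, 5 had higher and 7 had lower means on the high side, with a median of -0.05 that was 0.04 without fox 55.

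Genes read higher on the low side were fewer. MARK2, a kinase that controls cell polarity through microtubule-associated proteins, read 950, 1013, 1018 and 1313 on the high arrays and 3551, 4454, 5041 and 3717 on the low arrays. Each low array was far above each high array, and the log2 difference was -1.95 ± 0.16 (SE). FYCO1, which links autophagic vesicles to microtubule motors, read 776, 837, 904 and 926 against 1795, 1830, 2043 and 1746, a difference of -1.09 ± 0.08. Both sides of that probe set were tight, but the 5 other probe sets of FYCO1 lay at -0.93, -0.49, -0.34, 0.08 and 0.37, and 4 of them overlapped.

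MMP7, a secreted protease of epithelia, read 59.5, 34.7, 199 and 231 against 1816, 541, 507 and 572. Fox 19 was well above the other 3 low arrays, all low arrays were above all high arrays, and the difference was -2.65 ± 0.71. SDCBP2, a scaffold protein with PDZ domains, read 1.41, 19.0, 32.3 and 10.2 against 67.6, 289, 70.7 and 211, a difference of -2.34 ± 0.57. Foxes 55 and 402 were the higher of its low arrays, and foxes 86 and 757 were below background. PER1, a repressor of the circadian clock, read 109, 46.7, 65.9 and 33.7 against 409, 165, 317 and 218, a difference of -1.89 ± 0.40, and TSC22D3, which is induced by glucocorticoids, read 735, 650, 678 and 708 against 1770, 1032, 1903 and 1207, a difference of -1.03 ± 0.21.

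The other genes named by the same rule differed by -1.01 to -1.71. They were PHF20 (-1.19) and ING4 (-1.25), both chromatin readers, CCDC115 (-1.71), which helps assemble the proton pump of vesicles, and the zinc finger genes ZNF550 (-1.27) and ZNF182 (-1.14). KIN (-1.01), a nuclear DNA-binding protein, SLC4A11 (-1.11), a membrane transporter, ZRANB1 (-1.02), a deubiquitinating enzyme, and CDS1 (-1.02), an enzyme of phospholipid synthesis, were the rest. The SLC4A11 probe set at -1.11 was above background on only 1 of the 4 high arrays. Several of these genes were not uniform. The brightest probe set of KIN overlapped at 0.03 and that of SLC4A11 at -0.49, CCDC115 had others at -0.97 and 0.04, and the second probe sets lay at -0.18 for ZRANB1, -0.67 for CDS1, -0.49 for ZNF182 and -0.99 for ING4.

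**Figure D3:**
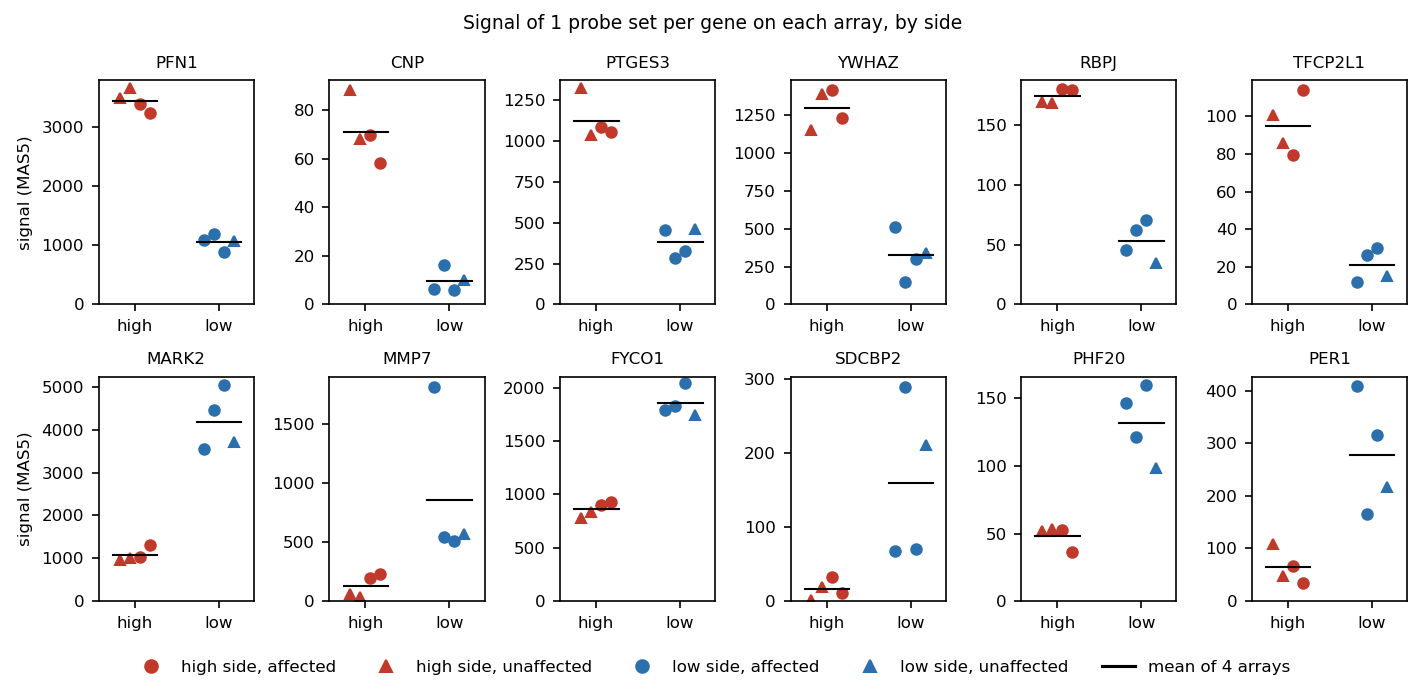
Signal (linear axis from 0) of 1 probe set for each of 12 genes on each array, grouped by side, with circles for affected foxes, triangles for unaffected foxes and a line at the mean of 4 arrays. The upper 6 genes lie higher on the high side and the lower 6 on the low side, with no overlap in any panel; MMP7 on fox 19 (1816) stands away from its own side.

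Many genes have several probe sets, and they were compared within each gene. Whether they read different stretches of the transcript is not known here. Some share a name apart from its ending, as those of ARPC4 and those of A2ML1 that followed do, so they may not be independent readings. Among 5587 genes with at least 2 tested probe sets, all probe sets differed in the same direction in 3539 (63.3%). Among the 119 of them with a probe set that followed the split, all differed in the same direction in 99 (83.2%) and did not in 20. The direction of those 119 was chosen by their values, so the 2 shares are not a test. At least 2 probe sets followed the split in 30 genes, 28 upwards and 2 downwards, and no gene had probe sets that followed it in both directions. LOC610787, whose probe sets lay near the actin controls, is among the 28. In 89 genes only 1 did. Of the 177 other probe sets of these genes, 150 (84.7%) differed in the same direction as the one that followed, by a median of 0.44 in that direction.

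All tested probe sets followed the split in 15 genes, each with 2 of them. IFNGR1 differed by 1.58 and 1.46, UBQLN1 by 1.65 and 1.44, and ARPC4, a subunit of the complex that branches actin filaments, by 1.41 and 1.08. ARPC4 read 263, 189, 183 and 258 against 44.7, 97.0, 97.6 and 65.5 in one probe set and 377, 353, 372 and 471 against 164, 226, 176 and 147 in the other. The sides were apart in both. The others were ALDH6A1, ANXA4, CCL20, CNP, GDA, HSPB2, LMNB1, PIM1, RAB8B, SLC39A7, SNAP23 and TMEM11. There were 0 genes with 3 or more probe sets that all followed it.

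In other genes the probe sets parted. YWHAZ, a phosphoserine-binding adaptor, read 1152, 1388, 1420 and 1234 against 515, 149, 300.3 and 343 in one probe set (2.05 ± 0.36) and differed by 1.61 ± 0.21 in a second, yet another overlapped, at 2042 to 3184 against 2950 to 3134 (-0.22 ± 0.14). MBNL1, a splicing regulator, had 3 probe sets that followed the split, at 1.61, 1.23 and 1.22, and 3 brighter ones at 0.17, -0.05 and -0.24. MFN1, which fuses mitochondria, differed by 1.24 and 1.21 in 2 probe sets and by -0.21 in the other. In each of these 3 genes the same RNA samples gave a 2-fold difference or no separation depending on the probe set read.

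Milder forms of this were seen elsewhere. SAR1A, a GTPase of vesicle budding, followed in 2 probe sets (1.32 and 1.05) and differed by 0.29 in its brightest one. GOLPH3, a Golgi protein, differed by 1.08 and 0.21. SRSF1, a splicing factor, differed by 1.31 ± 0.30 and 1.21 ± 0.59 in 2 probe sets and by 0.65 ± 0.06 in the brightest, where the high arrays read 1694, 1600, 1696 and 1638 against 1003, 981, 1053 and 1183. The second of these differences was 0.64 without fox 55, which read 24.5 there. CD164, a membrane sialomucin, followed in 3 of 6 probe sets, all 6 of them higher on the high side on average.

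All probe sets were in 1 direction in 17 of 27 genes that followed downwards and in 82 of 92 that followed upwards, beside 63.3% over all 5587 genes, and the difference between these shares was not tested. MARK2 had a second probe set at -0.32, PER1 at -0.35, PHF20 at -0.13 and TSC22D3 at -0.36. A2ML1, a protease inhibitor of stratified epithelium, and PPP1R15A, which restarts translation after stress, were the 2 genes with at least 2 probe sets following downwards. A2ML1 read 550.2, 1626, 2772 and 2988 against 4829, 4129, 4221 and 4149 in one probe set, a difference of -1.38 that was -0.86 without fox 86, and -1.35 in the other, or -0.78 without fox 86. PPP1R15A differed by -1.78 and -1.58, the second being -1.04 without fox 86, while its other 3 probe sets lay between -0.86 and 0.10. The PPP1R15A probe set at -1.78 was above background on only 1 of the 4 high arrays.

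**Figure D4:**
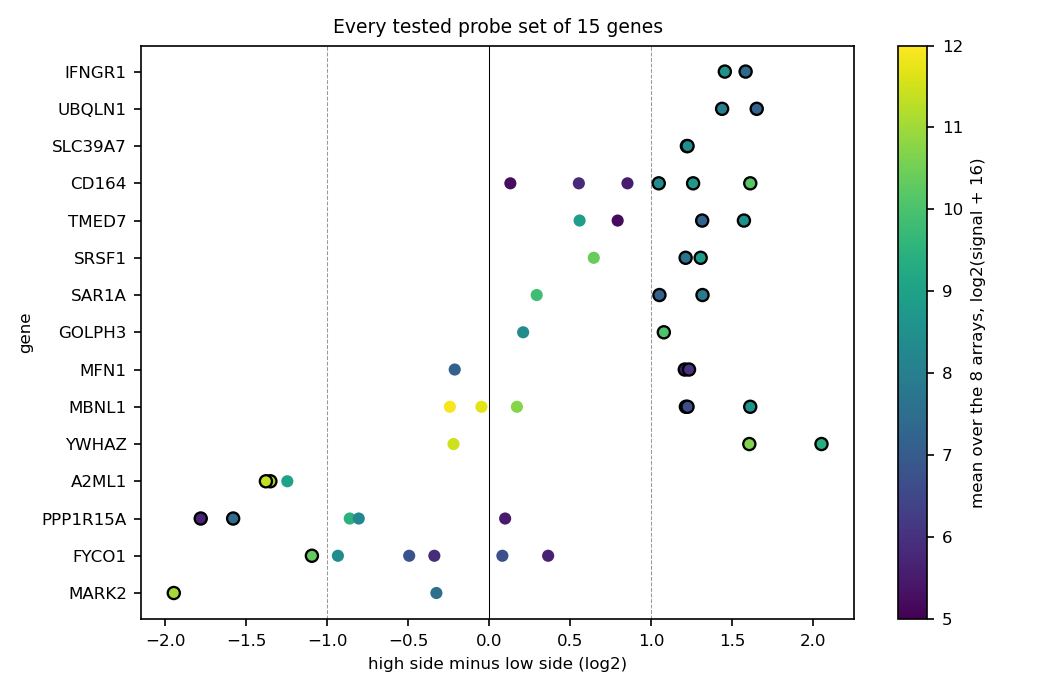
Difference between the side means (log2, high minus low) of every tested probe set of 15 genes; fill colour gives the mean over the 8 arrays, a black ring marks probe sets that follow the split, and dashed lines mark a 2-fold difference. IFNGR1 and UBQLN1 have all points beyond the dashed line, while MBNL1 and YWHAZ have ringed points to the right of it and brighter points near 0.

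Which end or part of a gene a probe set reads is not given in the annotation used here. The probe sets are described by the form of their names and by their brightness instead. By the form of the probe set name, whose meaning is not given in the sources used, 6.53% of 12976 probe sets named CfaAffx lay higher without overlap and 3.28% lower. Among 6887 named Cfa with an A these shares were 2.22% and 7.14%, and among 5887 named Cfa with an S they were 6.05% and 4.23%. Within genes that had both, the CfaAffx probe sets lay above the Cfa A probe sets in 1253 of 2056 genes (60.9%), with a median gap of 0.076, and the Cfa S above the Cfa A in 493 of 756 genes (65.2%), with a median gap of 0.10. CfaAffx and Cfa S differed by a median of 0.017 over 2524 genes.

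By brightness, the brightest probe set of a gene lay below the dimmest in 3250 of 5587 genes (58.2%), with medians of -0.0059 and 0.062. Among genes that followed upwards, the brightest probe set was itself one that followed in 37 of 92, and among genes that followed downwards in 16 of 27. The span of the gene on the fox assembly VulVul3 had a median of 28889 bases for the genes whose brightest probe set followed upwards (78 of 85 matched), 34587 bases downwards (22 of 24 matched) and 27390 bases over all genes (9999 of 10824 matched). The span counts introns and is not the length of the transcript.

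Genes were then grouped by function, with the brightest tested probe set standing for each of 10824 genes. Of all genes, 613 lay higher without overlap (5.66%) and 542 lower (5.01%), and 5709 (52.7%) had a higher mean on the high side, with a median of 0.022. The lists below are described by counts and medians beside these values, with no test. In pieces of whole tissue, fewer cells of a type and less RNA per cell cannot be told apart.

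Of 35 cytoplasmic actins and actin-binding proteins, 25 had higher means on the high side, with a median of 0.26, and 8 lay higher and 2 lower without overlap. MYH9, the heavy chain of non-muscle myosin, read 648, 1127, 503 and 648 against 277, 301, 357 and 329, a difference of 1.11 ± 0.25, and its other probe sets differed by 1.07, 0.94 and 0.44. ACTR2, of the complex that branches filaments, differed by 1.04 ± 0.31, with others at 0.51 and 0.49. GSN (gelsolin, which severs filaments) and CTTN (cortactin) lay lower in their brightest probe sets, at -0.38 ± 0.14 and -0.45 ± 0.17, while their others overlapped, at -0.08 and 0.09 for GSN and -0.07 and -0.16 for CTTN. The list score, the mean of its members' centred log2 values, ran from 0.08 to 0.18 on the high arrays and from -0.23 to 0.01 on the low arrays. Without any 1 array the median ran from 0.18 to 0.35.

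Of 11 targets of SRF and its actin-sensing cofactor MRTF, 9 were higher, with a median of 0.41 and 3 without overlap, MYH9, CNN2 (0.80) and TAGLN2 (0.69). As defined, this list shares genes with the actin list, MYH9, ACTG1 and FLNA among them, and TPM1 with that of smooth muscle. The lists are therefore not separate observations. Of 12 genes of contractile smooth muscle, 11 were higher, with a median of 0.56 and only CNN1 (0.34) without overlap. Of 9 tubulins and microtubule genes, 7 were lower, with a median of -0.14 that was -0.05 without fox 19 and -0.27 without fox 97.

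Of 9 glucocorticoid-induced genes, 7 were lower on the high side, with a median of -0.66, and 4 of them lay lower without overlap while 2 lay higher. PER1 and TSC22D3 are described above. NFKBIA, an inhibitor of NF-kappaB, read 1145, 1376, 1357 and 1047 against 2293, 2084, 2330 and 1866, a difference of -0.80 ± 0.12, and ERRFI1, an inhibitor of the EGF receptor, differed by -0.66 ± 0.20. The low arrays were all above the high arrays for these 4 genes. DUSP1, a phosphatase of MAP kinases, and SGK1, a kinase, went the other way at 0.68 ± 0.23 and 0.97 ± 0.42, the latter being 0.63 without fox 55 and 0.69 and 0.13 in other probe sets. DUSP1 and SGK1 also stood on the list of immediate early genes, of which 11 of 16 were higher, with a median of 0.39, JUNB (1.13) and MYC (0.79) among the 4 without overlap. Of 12 clock genes, 5 were higher and 7 lower, with BHLHE40 (0.69) higher and PER1 lower without overlap. Time of day and season of sampling are not given per fox.

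Of 20 chaperones and translocation genes of the endoplasmic reticulum, 16 were higher, with a median of 0.34 (0.22 without fox 402 and 0.51 without fox 55), and 6 lay higher without overlap and 0 lower. CALR (calreticulin) read 1681, 1404, 1408 and 1637 against 1183, 1016, 749 and 561, a difference of 0.84 ± 0.24, with other probe sets at 0.89, 0.42 and 0.22. HYOU1 differed by 0.93 ± 0.19, PDIA4 by 0.59 ± 0.16 and DNAJB9 by 0.63. Among 27 splicing genes 7 lay higher and 3 lower without overlap, with a median of 0.10 that was -0.02 without fox 86, and TRA2A differed by 1.24 ± 0.14. EIF4E, which binds the mRNA cap, read 460, 516, 526 and 504 against 160, 151, 132 and 305, a difference of 1.42 ± 0.25, but its other probe set overlapped at 0.13 ± 0.24. Of the 19 translation factors 14 were lower.

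Lists of abundant housekeeping transcripts had medians near 0. Of 32 cytoplasmic ribosomal proteins, 28 were lower, with a median of -0.11 (-0.05 without fox 86) and 0 without overlap. Oxidative phosphorylation had a median of 0.01 over 21 genes, hypoxia and glycolysis 0.05 over 22 and the proteasome -0.06 over 23, and the first 2 changed sign in some alternatives. Of 23 genes of very large proteins, 14 were lower, with a median of -0.07 that was 0.03 without fox 381, although PLEC, one of them, differed by 1.17 ± 0.29.

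Markers of cell types moved with the sides to a varying degree. Keratins and collagens, which define the epithelium and connective tissue of gingiva, were both measured on all arrays. Summed signals of the 16 keratin and junction genes were 19630 to 69001 on the high side and 31745 to 66749 on the low side. Of these genes 12 had lower and 4 higher means on the high side, with a median of -0.39 and 0 without overlap. With each array left out in turn that median ran from -0.63 to -0.21. Summed signals of the 24 collagen and matrix genes were 28186 to 50721 on the high side and 19646 to 35070 on the low side. Of the matrix genes 22 were higher on the high side, with a median of 0.55, and 1, PDGFRA, a receptor of fibroblasts, lay higher without overlap (107, 59.8, 56.8 and 88.4 against 35.7, 28.4, 29.2 and 29.6). Of 18 genes of the cornified envelope, the outer shell of surface epithelium, 16 were lower, with a median of -0.95 and 0 without overlap. Fox 86 had the lowest cornified score (-1.70) and fox 19 the highest (1.33), and the median was -0.59 without fox 86 and -1.32 without fox 97. KRT10, a keratin of differentiated layers, read 44.4, 243, 144 and 74.7 against 5124, 86.4, 2455 and 604, so that fox 55 lay among the high arrays.

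Of 14 genes of blood endothelium, 12 were higher, with a median of 0.44, and 5 lay higher without overlap. ENG, a co-receptor of TGF-beta, read 177, 150, 136 and 143 against 64.4, 81.8, 71.6 and 60.0, a difference of 0.97 ± 0.11 (0.66 with overlap in its second probe set), and PLVAP (0.71), ESAM (0.44) and ERG (0.80, or 0.53 without fox 55) were also apart. The endothelial score ran from 0.06 to 0.44 on the high arrays and from -0.32 to -0.03 on the low arrays. Leukocyte lists had higher medians on the high side but overlapped. The medians were 0.47 for 15 macrophage genes, 0.61 for 11 T cell genes and 0.84 for 6 genes of B and plasma cells, and 14, 10 and 6 of their members were higher. Only PRDM1 (0.53) among those 32 genes lay without overlap. Fox 97 had the lowest of the high scores in each of the 3 lists, so the median of the B cell list was 1.37 without it and 0.58 without fox 86. The macrophage median was 0.71 without fox 97 and 0.29 without fox 86, and the T cell median was 0.26 without fox 19 and 1.05 without fox 55. Neutrophil genes had a median of 0.02 over 9 genes, with a sign that changed between alternatives. The part of these tissue differences in the other differences between the sides was not tested.

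**Figure D5:**
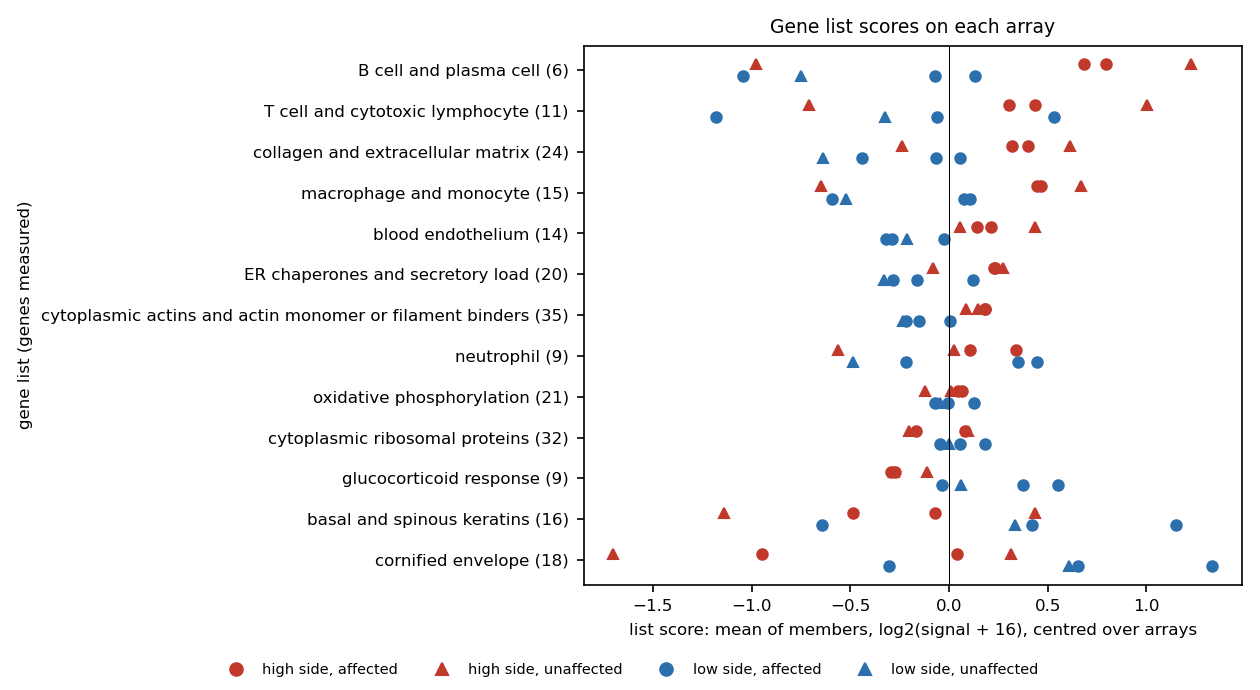
Score of 13 gene lists on each array (log2 values of the members, centred gene by gene and averaged), red for the high side and blue for the low side, with circles for affected and triangles for unaffected foxes. Scores of actin binders, endothelium and glucocorticoid response do not overlap between the sides, while those of cornified envelope and of T and B cells spread widely within each side.

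Genes whose log2 values followed the 5' actin control most closely over the 8 arrays, by Pearson correlation, were SRSF1, GOLPH3, TMED7, SINHCAF, NFE2L1, SAR1A, NF1, HNRNPM, PTGES3 and SPRED1. Not all of them differed by 2-fold. SINHCAF, a subunit of a histone deacetylase complex, read 109, 109, 108 and 109 against 73.2, 58.4, 65.3 and 73.1, a difference of 0.58 ± 0.06. NFE2L1, a transcription factor for proteasome genes, differed by 0.59 ± 0.05 (0.27 in its brightest probe set), and NF1, a negative regulator of Ras, by 0.87 ± 0.12, with 2 other probe sets of NF1 at -0.03 and -0.09. A high correlation with the control that chose the sides favours genes with tight arrays within a side, so such tightness follows from the choice. NF1 ran from 40.1 to 54.5 on the high arrays and from 13.7 to 24.0 on the low arrays.

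Because both sides held affected and unaffected foxes, disease status could be tested with the side as a block. In limma 0 of 25754 probe sets passed an adjusted p of 0.05 (0% called). An unadjusted p under 0.05 was found in 695 (2.70%), a smaller share than that threshold gives on average with no effect. Without the block 0 passed and 693 (2.69%) had an unadjusted p under 0.05. The smallest adjusted p in limma was 0.999 with the block and 0.791 without it. The median standard error was 0.22 with the block and 0.23 without, and the residual SD was smaller with the side in 51.7% of probe sets. The difference of the disease effect between the sides, as an interaction, was called in 0 probe sets (0%), with 553 at an unadjusted p under 0.05 and a median standard error of 0.45. The low side has 1 unaffected fox, so this fit and each value within the low side rest on fox 402 alone for that arm, with its spread assumed to be that of the other arms.

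The block moved single genes. FOS, an immediate early transcription factor, read 733 (fox 86), 669 (fox 97) and 268 (fox 402) in unaffected foxes and 2762 (fox 107), 3202 (fox 757), 1898 (fox 19), 639 (fox 55) and 705 (fox 381) in affected foxes. Affected and unaffected foxes overlapped when pooled and did not within either side, and the log2 difference was 1.94 ± 0.34 (SE) with the block against 1.53 ± 0.58 without it, 2.06 within the high side and 1.77 within the low side. ANXA4, a calcium-dependent membrane binder, read 460, 463 and 216 in unaffected foxes 86, 97 and 402 and 277, 293, 82.9, 80.3 and 106 in affected foxes 107, 757, 19, 55 and 381. Its difference was -0.87 ± 0.18 with the block and -1.23 ± 0.46 without it, and the same probe set followed the split at 1.56 ± 0.35. Both genes had an adjusted p of 0.999 in limma. They were picked by their small p in the blocked fit, which favours genes with a small SE there. Their smaller SE with the block and their separation within the sides are therefore not evidence for the block.

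Other genes with the smallest p in the blocked fit changed less with the block. CELA1, a serine elastase, differed by 2.50 ± 0.49 (2.40 without the block), GRAP2, an adaptor of T cells, by 1.05 ± 0.20, RAB26, a vesicle GTPase, by 1.02 ± 0.20 and VWA5B2 by 0.93 ± 0.18. REEP5, which shapes the endoplasmic reticulum, read 1493, 1159 and 1399 in unaffected foxes and 595, 626, 413, 487 and 491 in affected foxes, a difference of -1.29 ± 0.18, while its other 3 probe sets lay at -0.44, -0.22 and -0.05. ACSL5, which activates fatty acids, differed by -0.82 ± 0.17, PBRM1, of a chromatin remodelling complex, by -0.89 ± 0.19 and EGLN2, an oxygen-sensing hydroxylase, by -0.84 ± 0.19. Other probe sets lay at -0.31 and -0.17 for PBRM1, at 0.03 and 0.05 for EGLN2, at -0.78 to -0.25 for ACSL5 and at 0.46 for VWA5B2. The adjusted p was 0.999 for each in limma, and 0.999999 for the interaction.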

How the data were processed

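Per the submitters' processing notes, the authors made the deposited values with MAS5, with its version not given in the sources used. Each deposited value is 1 linear intensity per probe set and array, called signal here, and the trimmed mean was 150.0 on every array. The sources used here do not give detection calls or the scaling target, and the number of arrays limits the precision. Of 43035 probe sets 111 controls were left out, and so were the 40% with the lowest mean over the 8 arrays. Values entered as log2(signal + 16), not normalized again, with an offset that shrinks differences of dim probe sets. Background was the 95th percentile of 27 unspiked bacterial control probe sets per array. Symbols came from the platform's annotation, which gave 1 symbol to 29254 probe sets, several to 439 (not named) and none to 13231. Symbols can be old.

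Disease status was fitted with limma 3.58.1 in R 4.3.3 (lmFit, eBayes, Benjamini-Hochberg, threshold 0.05) with the side as a term. The disease fit was also run on simulated arrays with no difference between the sides, so that run did not exercise the block. Its outcome is not given here. Each array is 1 fox.

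Named genes were, in each direction, the 15 with the widest gap between the sides among probe sets that follow the split, up to 4 per direction from each of 34 lists, the actin family and GAPDH, the 10 most like the 5' actin control and the 5 with the smallest p per direction for disease, passing over locus numbers and immunoglobulin segments. Of these, 1 gene is not reported here. A further part, genes with at least 3 probe sets all following, found 0. Genes with at least 2 following probe sets, LOC610787, the name forms, the brightest and dimmest probe sets and a term for disease status were added after seeing the data. Gene span was used since no table of proteins or promoters was used here. The arrays, members and lists were chosen with earlier results of these data known. Alternatives covered offset, filter, normalization, size of difference, 1 probe set per gene, and each array left out.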

Additional observations from a re-analysis of the deposited data

Results flagged for a closer look

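For the probe sets of named genes that follow the split, the 4 arrays of each side were compared with each other, 190 sets of 4 values in all. In 9 of them 1 array lay far from the other 3 of its side, and chance alone gives about 1 in 20. On the low side, fox 19 read 1816 for MMP7 (others 507 to 572), 41.8 for SLC4A11 (30.4 to 32.2), 4829 for A2ML1 (4129 to 4221) and 224 for CCL20 (466 to 496). Fox 55 read 84.0 for CCDC115 (205 to 230). Fox 381 read 461 for ZRANB1 (398 to 405) and 931 for LOC480043 (597 to 616). On the high side, fox 757 read 36.0 for PHF20 (52.0 to 53.2) and fox 97 read 443 for SLC39A7 (537 to 554).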

How the results depend on the processing

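Counts of probe sets that follow the split (205 higher, 59 lower) depended on the offset and the size asked for. They were 401 and 130 with an offset of 1, 65 and 23 with an offset of 64, 769 and 343 at 1.5-fold, and 85 and 24 with 1 probe set per gene. Leaving out each array in turn gave 207 to 541 higher and 48 to 166 lower, and fewer arrays leave fewer chances to overlap. Without the filter, above background only, after quantile normalization, after median centring and with disease status as a term, the counts ran from 166 to 214 and from 58 to 75. Of the 264 probe sets, 224 still followed after median centring and 236 after quantile normalization. Of 3094 alternative values of 238 probe sets of named genes, 72 moved by more than 1 SD and 67 changed sign. The sign changes fell on 28 probe sets with differences up to 0.35 in size, 0 of which follow the split. The medians of 26 of 34 lists kept their sign in every alternative run, and those of 8 did not: heat shock, hypoxia, oxidative phosphorylation, splicing, very large proteins, neutrophil, salivary gland and adipocyte. Limma called 0 probe sets for disease and for its difference between the sides in every alternative run. No paired analysis was possible because the groups share no replicate numbers.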
